A study of Mus musculus with 4 samples.

Results

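The 9 genes described here encode the cyclins and the inhibitors that set the activity of the G1 kinases: the D cyclins Ccnd1, Ccnd2 and Ccnd3, the E cyclins Ccne1 and Ccne2, the CIP/KIP inhibitors Cdkn1a, Cdkn1b and Cdkn1c, and Cdkn2a. They were taken by symbol, and all 9 were found, each as 1 of the 13815 rows of the mRNA table. Polyadenylated RNA was sequenced from Dgcr8-/- mouse embryonic stem cells, from Dicer-/- cells and from wild-type V6.5 cells (WT), with 1 library of each. All of these cells were grown in DMEM with ESGRO, a leukaemia inhibitory factor, at 1000 units/mL, 15% serum and antibiotics. Small RNA was sequenced from WT cells, also as 1 library. The knockout alleles, and whether each line is 1 clone, are not stated in the labels. DGCR8 is the partner of the nuclease Drosha, which frees miRNA hairpins in the nucleus, and Dicer cuts those hairpins into mature miRNAs.

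D cyclins bind and activate CDK4 and CDK6, and E cyclins bind and activate CDK2; these kinases phosphorylate the retinoblastoma family of pocket proteins and release E2F factors for entry into S phase. The CIP/KIP proteins p21 (Cdkn1a), p27 (Cdkn1b) and p57 (Cdkn1c) bind cyclin-CDK complexes, while the Cdkn2a locus makes p16, which binds CDK4 and CDK6, and p19ARF, which stabilises p53. Mouse embryonic stem cells are known for a short G1 phase, and cells without miRNAs for gathering in G1.

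With 1 library per group there is no replicate check and no test. Differences of line and culture cannot be told apart from genotype, and in bulk RNA fewer cells of a type and less RNA per cell cannot be told apart. Levels are CPM, a gene's counts scaled to the same total in each library, out of the 11123498 counts of the Dgcr8-/- library, the 12309100 of the Dicer-/- library and the 9931625 of the WT library. Ratios are ratios of CPM, with exact 95% intervals that cover counting error only, and calls needed a difference of 2-fold or more in CPM + 1. The targeted genes were lower in their own knockouts: Dgcr8 was at 20.9 CPM in Dgcr8-/- cells and 52.7 CPM in WT cells, and Dicer1 at 20.1 CPM in Dicer-/- cells and 79.9 CPM in WT cells. Stem cell identity was checked with 8 pluripotency markers, which were all present. Together they held 7432 CPM in Dgcr8-/-, 8006 CPM in Dicer-/- and 10003 CPM in WT cells. Much of each sum was Dppa5a, at 2715, 4222 and 5564 CPM in the same order. Single markers differed both ways: Zfp42 was called lower in Dicer-/- cells (95.1 CPM, against 488 CPM in WT cells), Dppa5a lower in Dgcr8-/- cells (2715 CPM, against 5564 CPM), and Fgf4 higher in Dgcr8-/- (416 CPM) and in Dicer-/- cells (367 CPM), against 178 CPM in WT cells, the Dicer-/- call being lost under TMM and median-ratio scaling, alternatives that correct library totals for differences in composition. Of 8 fibroblast markers, which feeder cells would bring, 3 were listed (Col1a1, Thy1 and Pdgfrb), with summed levels of 11.1, 2.52 and 40.1 CPM in the same order. Dcn, Lum and Postn, which define fibroblasts best, were looked for and were not listed, and the same held for Col1a2 and Col3a1. Every listed gene reached at least 10 counts in some library, so a gene not listed may still have had lower counts.

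Against WT, 5 of the 9 genes were higher in Dgcr8-/- cells (Ccnd1, Ccnd2, Ccne2, Cdkn1b and Cdkn2a) and 2 were lower (Ccnd3 and Cdkn1c). Of all 13223 genes tested in that comparison, 14.3% were called higher and 8.02% lower. Higher calls made up 64.1% of all calls there, and 53.6% under median-ratio scaling. The same 5 and the same 2 were called in Dicer-/- cells, where 16.0% of 13403 genes were called higher and 9.70% lower. Both comparisons use the same WT library, so the likeness of their calls is not independent. Ccne1 and Cdkn1a differed by less than 2-fold in both. All 9 genes reached 1 CPM in every library, so no gene entered through the library where it was high. The median log2 ratio of the 9 was 1.13 in Dgcr8-/- and 1.15 in Dicer-/- cells, beside 0.11 and 0.10 for all genes tested.

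**Figure D1:**
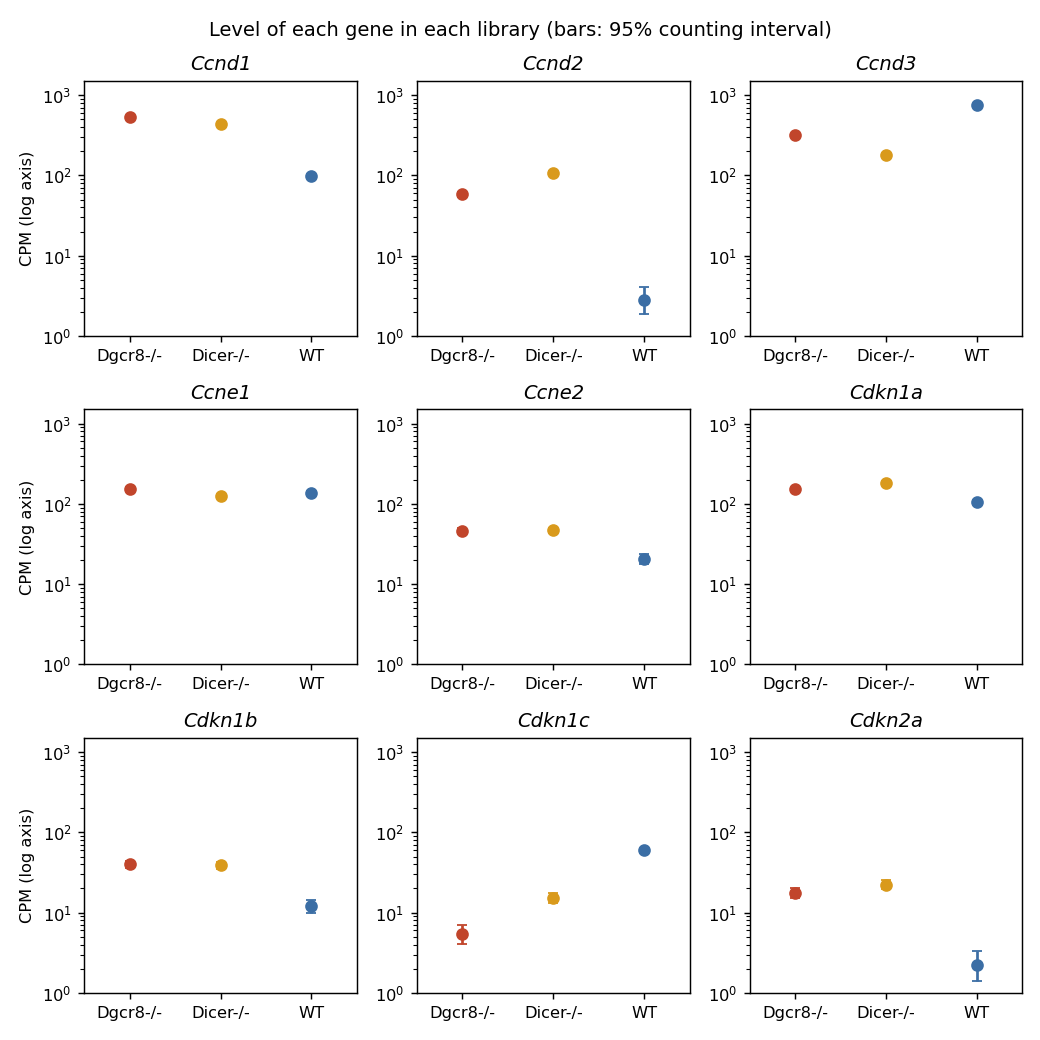
Level of each gene in CPM (log axis) in the Dgcr8-/-, Dicer-/- and WT libraries, 1 point per library, with bars for the exact 95% Poisson interval of the count, smaller than the point for most genes. Ccnd2 stood at 58.3 CPM in Dgcr8-/-, 106.8 CPM in Dicer-/- and 2.82 CPM in WT cells, and Cdkn1c ran the other way at 5.39, 15.4 and 59.7 CPM.

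The D cyclins differed in opposite directions. Ccnd2, on chromosome 6, had 649 counts (58.3 CPM) in Dgcr8-/- cells, 1314 counts (106.8 CPM) in Dicer-/- cells and 28 counts (2.82 CPM) in WT cells. It was barely present in WT and high in both knockouts. Its ratio to WT was 20.7 (14.2 to 31.4) in Dgcr8-/- and 37.9 (26.1 to 57.2) in Dicer-/- cells. The ratio used for calls, not the ratio of CPM, was ranked among all genes tested. On that ratio, 0.136% were as high or higher in the Dgcr8-/- comparison and 0.0671% in the Dicer-/- comparison.

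Ccnd1, on chromosome 7, had 6008 counts (540.1 CPM) in Dgcr8-/- cells, 5418 counts (440.2 CPM) in Dicer-/- cells and 981 counts (98.8 CPM) in WT cells. This cyclin was already well expressed in WT, and was 5.47-fold higher (5.11 to 5.86) in Dgcr8-/- and 4.46-fold higher (4.16 to 4.77) in Dicer-/- cells. Ccnd3, on chromosome 17, had 3516 counts (316 CPM) in Dgcr8-/- cells, 2220 counts (180 CPM) in Dicer-/- cells and 7476 counts (753 CPM) in WT cells. It was the D cyclin that was lower in both knockouts, by 2.38-fold (2.29 to 2.48) in Dgcr8-/- and by 4.17-fold (3.98 to 4.38) in Dicer-/- cells.

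The balance between the D cyclins can be read within a library as a ratio of counts, which needs no scaling. Transcript length enters such a ratio, so only its change between libraries is compared. That change is free of length only if each gene used the same transcript forms in every library, which was not measured. Ccnd1 had 1.71 counts for each Ccnd3 count in Dgcr8-/- cells (1.64 to 1.78), 2.44 in Dicer-/- cells (2.32 to 2.57) and 0.131 in WT cells (0.123 to 0.140). Relative to Ccnd3, Ccnd1 was thus 13.0-fold higher in Dgcr8-/- than in WT cells (12.0 to 14.1) and 18.6-fold higher in Dicer-/- cells (17.1 to 20.2). The change was larger for Ccnd2 over Ccnd3, at 49.3-fold (33.7 to 74.9) in Dgcr8-/- and 158-fold (108 to 239) in Dicer-/- cells. Ccnd2 was also higher relative to Ccnd1, by 3.78-fold (2.58 to 5.77) in Dgcr8-/- and by 8.50-fold (5.81 to 12.9) in Dicer-/- cells. Of 5 listed markers of neural ectoderm, 3 were called higher in Dgcr8-/- and 4 in Dicer-/- cells, beside 14.3% and 16.0% of all genes. Their summed levels were 226, 207 and 147 CPM in Dgcr8-/-, Dicer-/- and WT cells. Tubb3 held most of each sum, at 167, 129 and 126 CPM, and was called in neither knockout. Neurod1 was not called in Dgcr8-/- cells (16 counts, against 14 in WT cells), and Pax6 had 2 counts in WT cells. Of 4 listed extraembryonic endoderm markers, 1 was called higher and 1 lower in each knockout. The Nes call in Dicer-/- cells was lost under both scalings (1.94-fold in CPM + 1). The part of these markers in the cyclin values was not tested.

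**Figure D2:**
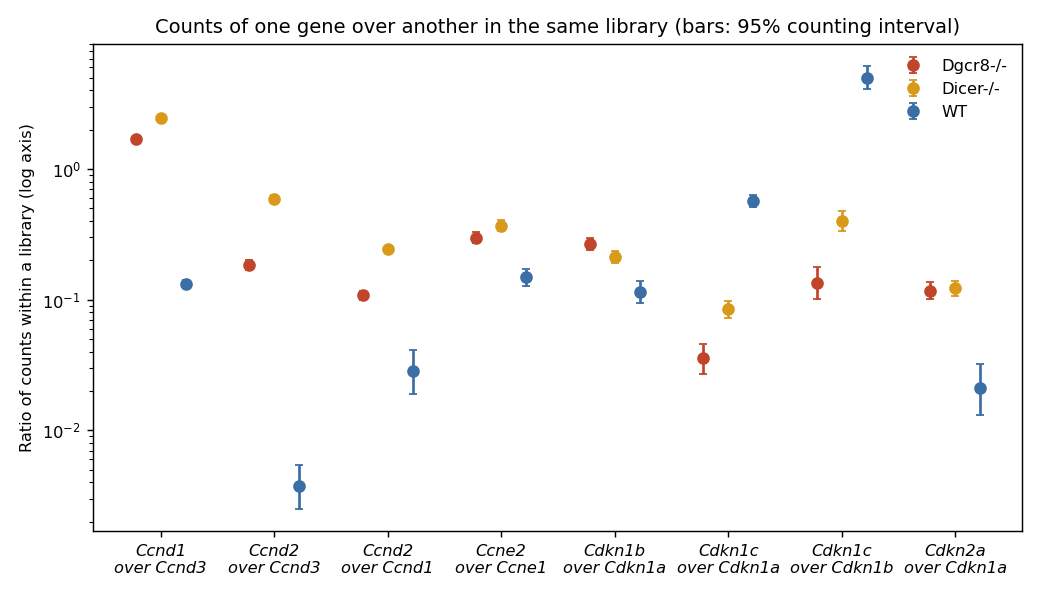
Counts of one gene over another in the same library (log axis), with exact 95% intervals as bars; each position holds the Dgcr8-/-, Dicer-/- and WT libraries from left to right. The Ccnd1 over Ccnd3 ratio was 1.71 in Dgcr8-/- and 2.44 in Dicer-/- cells and 0.131 in WT cells, while Cdkn1c over Cdkn1b was 0.135, 0.399 and 4.98.

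The E cyclins differed less. Ccne2, on chromosome 4, had 513 counts (46.1 CPM) in Dgcr8-/- cells, 575 counts (46.7 CPM) in Dicer-/- cells and 204 counts (20.5 CPM) in WT cells. The knockouts lay close together and above WT, at 2.25-fold (1.91 to 2.65) in Dgcr8-/- and 2.27-fold (1.94 to 2.68) in Dicer-/- cells. Both intervals reach below 2, and under median-ratio scaling the ratio in Dgcr8-/- cells was 2.04 and no longer met the rule on CPM + 1. Ccne1, on chromosome 7, had 1725 counts (155 CPM) in Dgcr8-/- cells, 1560 counts (127 CPM) in Dicer-/- cells and 1369 counts (138 CPM) in WT cells, ratios of 1.13 (1.05 to 1.21) and 0.919 (0.855 to 0.989) that were not called. Within a library, Ccne2 over Ccne1 was 1.996-fold higher in Dgcr8-/- than in WT cells (1.67 to 2.39) and 2.47-fold higher in Dicer-/- cells (2.07 to 2.96).

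**Figure D3:**
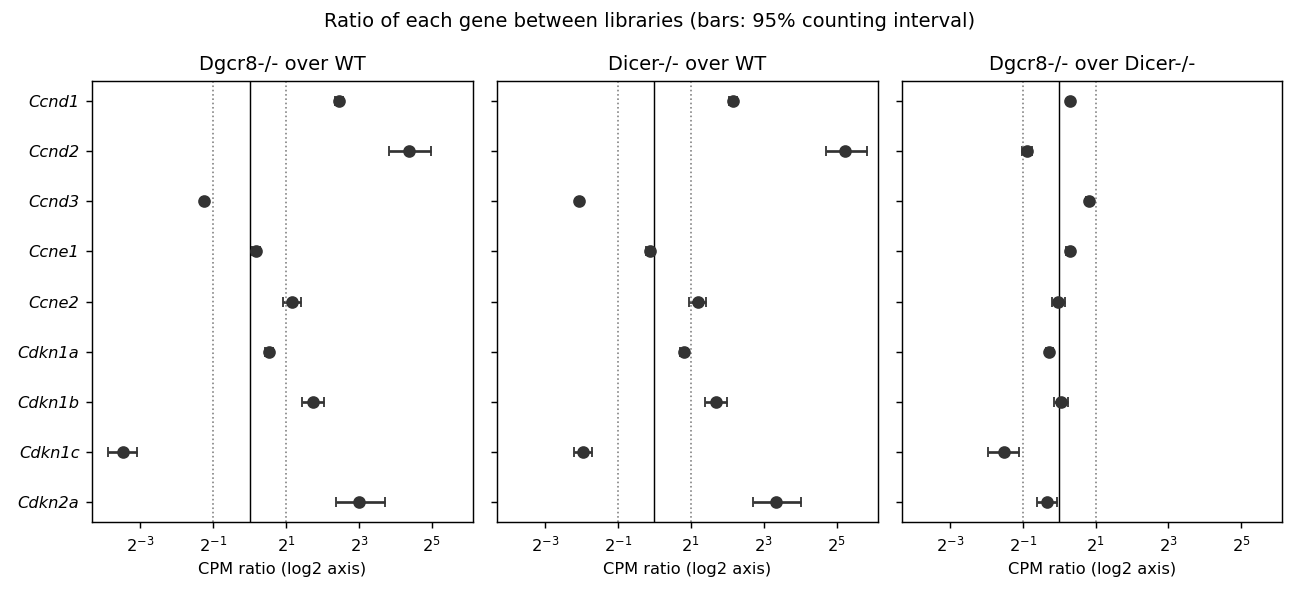
Ratio of CPM between libraries for each gene (log2 axis) with exact 95% counting intervals, for Dgcr8-/- over WT, Dicer-/- over WT and Dgcr8-/- over Dicer-/-; dotted lines mark 2-fold. Ccnd2, Cdkn2a and Ccnd1 lie farthest to the right and Cdkn1c and Ccnd3 to the left against WT, and of the 9 genes only Cdkn1c lies beyond 2-fold between the knockouts.

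Among the inhibitors, Cdkn1a, on chromosome 17, had 1683 counts (151 CPM) in Dgcr8-/- cells, 2249 counts (183 CPM) in Dicer-/- cells and 1042 counts (105 CPM) in WT cells. This p53 target, which encodes p21, is the classical target of stem cell miRNAs in this group. Its mRNA ratio was 1.44 (1.33 to 1.56) in Dgcr8-/- and 1.74 (1.62 to 1.88) in Dicer-/- cells, under the 2-fold rule in both. By the ratio of CPM + 1, 29.6% of all genes tested were as high or higher in the Dgcr8-/- comparison and 21.2% in the Dicer-/- comparison.

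Cdkn1b, on chromosome 6, had 446 counts (40.1 CPM) in Dgcr8-/- cells, 476 counts (38.7 CPM) in Dicer-/- cells and 119 counts (12.0 CPM) in WT cells. It encodes p27, which holds cyclin E-CDK2 inactive until it is degraded late in G1. It was 3.35-fold higher (2.73 to 4.13) in Dgcr8-/- and 3.23-fold higher (2.63 to 3.98) in Dicer-/- cells. Relative to Cdkn1a in the same library it was 2.32-fold higher (1.86 to 2.91) and 1.85-fold higher (1.49 to 2.32).

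Cdkn1c, on chromosome 7, had 60 counts (5.39 CPM) in Dgcr8-/- cells, 190 counts (15.4 CPM) in Dicer-/- cells and 593 counts (59.7 CPM) in WT cells. It was the only CIP/KIP gene that was lower in the knockouts, by 11.1-fold (8.48 to 14.7) in Dgcr8-/- and by 3.87-fold (3.28 to 4.58) in Dicer-/- cells. By the ratio used for calls, 0.129% of all genes tested were lower than Cdkn1c in the Dgcr8-/- comparison, and 2.14% in the Dicer-/- comparison. Against Cdkn1b in the same library it was 37.04-fold lower (26.2 to 52.5) in Dgcr8-/- and 12.5-fold lower (9.56 to 16.3) in Dicer-/- cells.

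Cdkn1c is imprinted and expressed from the maternal copy, in a domain where the noncoding RNA Kcnq1ot1 silences the paternal copies. Of 8 other genes of the domain, 7 were tested against WT in each comparison. Their median log2 ratio was -0.55 in Dgcr8-/- and -0.15 in Dicer-/- cells. In each, 0 were called higher and 2 lower, beside 8.02% and 9.70% of all genes called lower. The lower ones were Phlda2, a growth-restraining placental gene, at 88 counts (7.91 CPM) in Dgcr8-/-, 93 counts (7.56 CPM) in Dicer-/- and 625 counts (62.9 CPM) in WT cells, and Slc22a18 at 16, 21 and 77 counts. Both are maternally expressed too, and Slc22a18 is the next listed gene to Cdkn1c. No other tested gene of the domain was called in either knockout. Cd81 was at 402 CPM in Dgcr8-/-, 389 CPM in Dicer-/- and 262 CPM in WT cells, and Tssc4 at 31.8, 28.1 and 31.3 CPM, neither called. Kcnq1ot1 had 20 counts in Dgcr8-/-, 48 in Dicer-/- and 33 in WT cells. Its ratio to WT was 0.541 (0.294 to 0.971) in Dgcr8-/- and 1.17 (0.738 to 1.89) in Dicer-/- cells. Of the 3 listed fibroblast markers, 2 were called lower in Dgcr8-/- and 3 in Dicer-/- cells, with sums of 11.1 CPM in Dgcr8-/-, 2.52 CPM in Dicer-/- and 40.1 CPM in WT cells; their part in the Cdkn1c and Phlda2 values was not tested.

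Cdkn2a, on chromosome 4, had 197 counts (17.7 CPM) in Dgcr8-/- cells, 275 counts (22.3 CPM) in Dicer-/- cells and 22 counts (2.22 CPM) in WT cells. It was low in WT and 7.995-fold higher (5.13 to 13.1) in Dgcr8-/- and 10.1-fold higher (6.53 to 16.4) in Dicer-/- cells. Its neighbours on either side went in opposite directions. Cdkn2b, which encodes the CDK4 and CDK6 inhibitor p15, had 30 counts in Dgcr8-/- cells, 71 in Dicer-/- cells and 5 in WT cells, ratios of 5.36 (2.06 to 17.7) and 11.5 (4.69 to 36.4). Mtap, an enzyme of methionine salvage, was 2.06-fold lower (1.90 to 2.24) in Dgcr8-/- and 2.22-fold lower (2.05 to 2.40) in Dicer-/- cells. The Polycomb genes keep the Cdkn2a locus silent in many cells. Their median log2 ratios were 0.34 in Dgcr8-/- and 0.43 in Dicer-/- cells. In each knockout 2 of 8 were called higher and 0 lower, beside 14.3% and 16.0% of all genes called higher. The higher ones were Bmi1, a known repressor of Cdkn2a, at 11.3 CPM in Dgcr8-/-, 25.3 CPM in Dicer-/- and 3.32 CPM in WT cells, and Cbx8 at 3.51, 3.17 and 0.604 CPM.

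The table holds a single row for Cdkn2a, so transcripts from its alternative starts, which share most of their exons, cannot be told apart. RefSeq promoter windows, running from 250 bases before to 50 bases after a start, were given for 5 of the 9 genes: Ccnd3, Ccne1, Cdkn1a, Cdkn1b and Cdkn2a. The windows of the Cdkn2a starts, the upstream one first, and of Cdkn1b are shown because these inhibitors were higher in both knockouts (GRCm38.p6, minus strand for Cdkn2a and plus strand for Cdkn1b). Capitals mark the motifs searched on both strands: the E2F motifs, written TTTCCCGC or else TTTGGCGC, the GC box, which is GGGCGG, the box named after its letters CCAAT, the E box in the form CACGTG, the cyclic AMP response element TGACGTCA and the TATA box, searched as TATAAA.
Cdkn2a, chr4:89294570-89294869: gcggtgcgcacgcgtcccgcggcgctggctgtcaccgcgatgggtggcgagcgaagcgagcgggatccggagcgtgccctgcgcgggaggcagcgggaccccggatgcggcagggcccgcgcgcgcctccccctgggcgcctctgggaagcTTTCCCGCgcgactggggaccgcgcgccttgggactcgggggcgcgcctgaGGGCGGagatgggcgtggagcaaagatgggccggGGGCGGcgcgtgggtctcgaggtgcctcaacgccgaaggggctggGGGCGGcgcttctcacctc
Cdkn2a, chr4:89282143-89282442: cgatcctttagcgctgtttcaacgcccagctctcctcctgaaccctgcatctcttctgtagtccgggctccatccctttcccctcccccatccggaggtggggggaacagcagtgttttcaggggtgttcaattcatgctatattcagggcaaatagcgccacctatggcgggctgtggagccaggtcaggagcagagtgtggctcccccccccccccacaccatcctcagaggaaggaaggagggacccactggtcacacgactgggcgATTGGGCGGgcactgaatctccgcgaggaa
Cdkn1b, chr6:134920151-134920450: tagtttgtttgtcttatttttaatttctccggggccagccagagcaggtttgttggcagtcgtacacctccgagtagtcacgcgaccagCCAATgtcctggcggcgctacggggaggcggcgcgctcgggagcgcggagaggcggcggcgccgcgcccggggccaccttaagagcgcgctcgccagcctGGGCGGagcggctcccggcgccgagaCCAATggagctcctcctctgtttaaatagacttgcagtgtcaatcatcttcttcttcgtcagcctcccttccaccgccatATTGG

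The upstream Cdkn2a window held TTTCCCGC with its first base at position -99 from the start, a motif found in 1.07% of all 32851 RefSeq windows, and 3 GC boxes. The downstream window held 1 GC box and 1 CCAAT box, which overlap. The Cdkn1b window held 1 GC box and 3 CCAAT boxes. GC boxes were in 35.7% and CCAAT boxes in 37.4% of all windows. The other E2F motif (0.514% of all windows), the E box (7.15%), the cyclic AMP response element (1.79%) and the TATA box (13.6%) matched in none of the windows of these 5 genes. A match describes letters only.

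Between the knockouts, Dgcr8-/- against Dicer-/-, 0 of the 9 genes were called higher and 1 lower, where 4.15% of the 12986 genes tested were called higher and 5.05% lower. The gene called was Cdkn1c, with 60 counts in Dgcr8-/- and 190 in Dicer-/- cells, 2.86-fold lower in Dgcr8-/- cells (2.13 to 3.89). Ccnd2 was next, 1.83-fold lower in Dgcr8-/- cells (1.66 to 2.01), and Ccnd3 was 1.75-fold higher (1.66 to 1.85), both short of the rule. The other 6 genes had ratios between 0.793 and 1.23. For Ccne2 (0.987, 0.875 to 1.11) and Cdkn1b (1.04, 0.909 to 1.18) the counting interval included 1.

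The kinases that these cyclins activate were measured as well. Cdk6 had 203 counts (18.2 CPM) in Dgcr8-/-, 157 counts (12.8 CPM) in Dicer-/- and 58 counts (5.84 CPM) in WT cells. It was called higher in both, at 3.12-fold (2.32 to 4.26) and 2.18-fold (1.61 to 3.01); the Dicer-/- call was lost under TMM (1.89-fold in CPM + 1) and median-ratio scaling (1.88-fold). Cdk4, at 601, 620 and 369 CPM, was 1.63-fold (1.56 to 1.69) and 1.68-fold (1.61 to 1.75) above WT, and Cdk2, at 106, 76.6 and 55.98 CPM, 1.90-fold (1.72 to 2.11) and 1.37-fold (1.23 to 1.52), none of them called. Of 14 G1/S kinases and phosphatases, 3 were called higher and 0 lower in each knockout, beside 14.3% and 16.0% of all genes called higher. Their median log2 ratio was 0.14 in Dgcr8-/- and 0.23 in Dicer-/- cells. The others called were Wee1, the kinase that restrains CDK1, at 112 CPM in Dgcr8-/-, 117 CPM in Dicer-/- and 46.9 CPM in WT cells, and Cdc25b, a phosphatase that activates CDKs, at 91.5, 68.2 and 31.5 CPM. The Cdc25b call in Dicer-/- cells was lost under both scalings (1.98- and 1.97-fold in CPM + 1).

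Of 18 other cyclins, 17 were tested in Dgcr8-/- cells, with 2 called higher (Ccnj and Ccno) and 0 lower. All 18 were tested in Dicer-/- cells, with the same 2 higher and Ccng2 lower. Over all genes, 14.3% were called higher in Dgcr8-/- and 16.0% in Dicer-/- cells. Ccna2, the S phase cyclin, was at 237 CPM in Dgcr8-/-, 247 CPM in Dicer-/- and 221 CPM in WT cells. Ccno was at 12, 48 and 0 counts, in the same order, at least 3.57-fold higher in Dgcr8-/- and 12.9-fold higher in Dicer-/- cells against a floor of 3 counts in WT. Ccnj was at 15.6, 19.7 and 6.75 CPM, and its call in Dgcr8-/- cells was lost under both scalings (1.999- and 1.97-fold in CPM + 1). Among 5 listed other CDK inhibitors, Cdkn2b alone was called. Cdkn2d, which encodes p19INK4d, was at 19.8, 13.7 and 14.8 CPM.

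**Figure D4:**
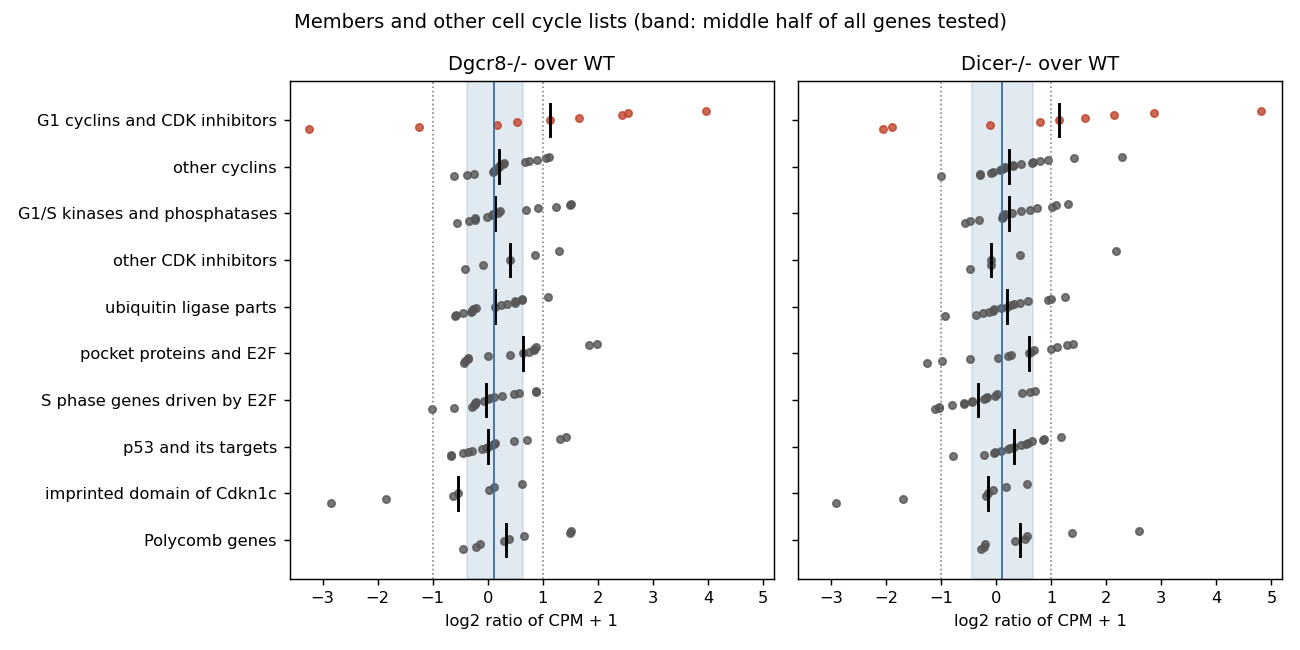
Log2 ratio of CPM + 1 for the 9 genes (red) and for the members of 9 other lists (grey) in Dgcr8-/- over WT and Dicer-/- over WT. Black ticks are list medians, the blue band and line are the middle 50% and the median of all genes tested, and dotted lines mark 2-fold; the 9 genes spread from -3.25 to 3.96 in Dgcr8-/- and from -2.06 to 4.82 in Dicer-/- cells.

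Downstream of the kinases, 2 of 13 pocket protein and E2F genes were called higher in Dgcr8-/- and 3 in Dicer-/- cells. Lower calls were 0 and 1, and medians were 0.64 and 0.60. Among all genes, 14.3% and 16.0% were called higher and 8.02% and 9.70% lower, in the same order. Rbl2, the pocket protein p130, was at 37.4 CPM in Dgcr8-/-, 24.5 CPM in Dicer-/- and 8.66 CPM in WT cells, and the repressive factor E2f7 at 44.5, 30.1 and 11.8 CPM. E2f5 (51.02 CPM in Dicer-/- and 23.3 CPM in WT cells) was called higher and E2f4 (118 CPM and 284 CPM) lower in Dicer-/- cells; the E2f5 call was lost under both scalings (1.998- and 1.99-fold in CPM + 1). The 16 S phase genes that E2F drives had 0 called higher and 1 lower in Dgcr8-/- and 0 higher and 3 lower in Dicer-/- cells, with medians of -0.03 and -0.33. Orc1 was lower in both, at 45.4, 44.7 and 92.2 CPM, and Mcm4 and Mcm5 in Dicer-/- cells. Of 15 ubiquitin ligase and deubiquitinase genes that turn over G1 cyclins and inhibitors, 1 was called higher in each comparison and 0 lower. In Dgcr8-/- cells this was Skp2, the F-box protein that sends p27 to degradation, at 122 CPM, against 56.4 CPM in WT cells; it was at 113 CPM in Dicer-/- cells, a ratio of 2.01 (1.82 to 2.22) that did not meet the rule on CPM + 1. The Dgcr8-/- ratio of Skp2 was 2.16 (1.96 to 2.39), an overlapping interval, and its call was lost under both scalings (1.98- and 1.95-fold in CPM + 1). In Dicer-/- cells the gene called was Fbxo4, an F-box protein reported to act on cyclin D1, at 64 counts, against 16 counts in WT cells.

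For p53, the activator of Cdkn1a, 2 of 15 genes of the list were called higher in Dgcr8-/- and 1 in Dicer-/- cells. Among all genes, 14.3% and 16.0% were called higher. In the list 0 were lower, with medians of -0.00 and 0.33. Trp53 itself was at 542 CPM in Dgcr8-/-, 603 CPM in Dicer-/- and 331 CPM in WT cells, 1.64-fold (1.57 to 1.71) and 1.82-fold (1.75 to 1.90) above WT. Sesn2 was called higher in both (101, 85.2 and 37.2 CPM) and Mdm4, an inhibitor of p53, in Dgcr8-/- cells (50.5 CPM, against 19.6 CPM in WT cells). The p53 targets Mdm2 (50.9, 73.7 and 69.5 CPM) and Ccng1 (195, 243 and 178 CPM) were not called in either.

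The miRNAs reported to act on these genes were read in the WT small RNA library, which lists 707 mature miRNAs and 2594949 reads. The sequences below are the most read members of the families, from RefSeq (GRCm38.p6), with the seed, bases 2 to 8, in capitals; the seed pairs with the target and defines the family.
miR-294-3p: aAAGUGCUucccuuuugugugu
miR-291a-3p: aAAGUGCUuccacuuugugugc
miR-295-3p: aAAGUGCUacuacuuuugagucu
miR-20b-5p: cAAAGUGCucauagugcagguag
miR-93-5p: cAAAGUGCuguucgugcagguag
miR-25-3p: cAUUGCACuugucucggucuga
miR-16-5p: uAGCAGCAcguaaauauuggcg
miR-26a-5p: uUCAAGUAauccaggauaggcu
miR-34a-5p: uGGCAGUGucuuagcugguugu
let-7f-5p: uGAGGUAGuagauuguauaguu
miR-221-3p: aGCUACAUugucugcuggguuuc

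The miR-294-3p seed AAGUGCU, carried by 5 miRNAs of the miR-290 and miR-302 clusters, made up 25.7% of all WT reads (exact Clopper-Pearson 95% interval 25.7 to 25.8). miR-292-3p of the miR-290 cluster, with 198264 reads (7.64%), had no sequence matched and is not in this share. The family is reported to repress Cdkn1a in mouse embryonic stem cells, and miR-302 also to act on cyclin D1 in human embryonic stem cells. The 6 miRNAs of the miR-17 family, whose seed AAAGUGC lies a single base along the same letters, made up 1.597% (1.58 to 1.61); they are reported to act on CDKN1A and CCND1 in human cells. miR-20b-5p (14824 reads) and miR-93-5p (12433 reads) were read more than miR-17-5p itself (1497 reads).

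Other families reported for D or E cyclins follow. The AGCAGCA seed of miR-16-5p, reported to act on D cyclins and Ccne1, held 0.344% of reads (0.337 to 0.351) over 5 miRNAs. The miR-26 family, reported for CCND2 and CCNE2 in human cells, held 0.283% (0.277 to 0.290). The miR-34 family, 3 miRNAs by name and reported for CCND1 and CCNE2 in human cells, held 0.144% (0.139 to 0.148); by seed, without miR-34c-5p, which had no sequence matched, the share was 0.0814% (0.0779 to 0.0849). The let-7 family, reported for CCND2 and CDK6 in human cells, held 0.0318% (0.0297 to 0.0340), or 825 reads over 8 miRNAs by name, and 0.0328% by seed.

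Of the families reported for p57 (Cdkn1c), miR-25-3p and 5 others with the seed AUUGCAC held 1.72% of reads (1.71 to 1.74). The miR-221 and miR-222 pair, reported for p27 and p57 in human cells, had 130 reads, 0.00501% (0.00419 to 0.00595). Small RNA from the knockouts was not analysed here, and read shares compare miRNAs only as far as each is cloned alike.

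**Figure D5:**
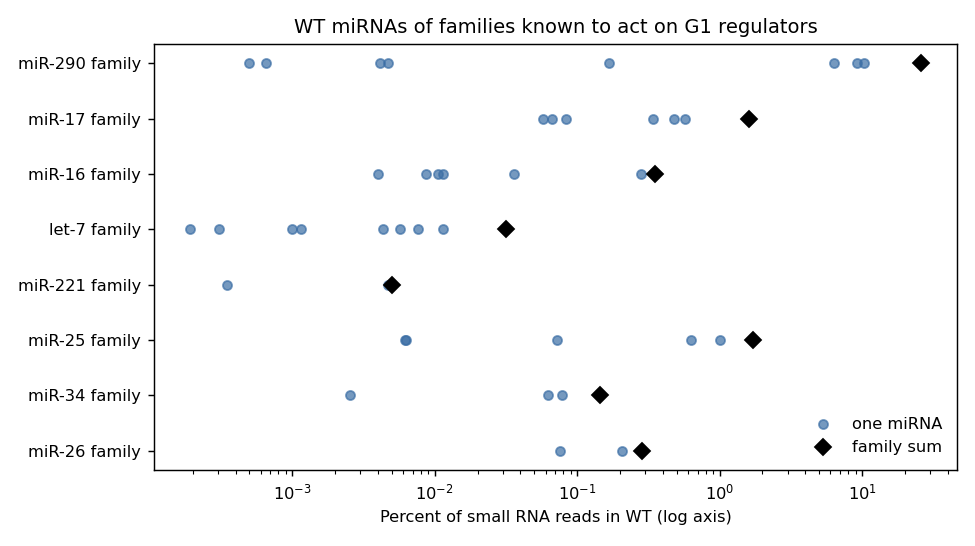
Percent of all WT small RNA reads (log axis) for each miRNA (blue points) and for the sum of its family by name (black diamonds), for 8 families reported to act on G1 cyclins or CDK inhibitors. The family sums run from 25.9% for the miR-290 and miR-302 group, without miR-292-3p, to 0.00501% for miR-221 and miR-222.

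Genes with a pattern most like that of a member over the 3 libraries were found by the Euclidean distance of log2(CPM + 1), centred per gene, among genes with a mean level within 4-fold of the member. For Ccnd2 they were Cds1 (38.7 CPM in Dgcr8-/-, 67.8 CPM in Dicer-/- and 1.91 CPM in WT cells; distance 0.188) and Fat2 (0.201). For Ccnd1 they were Arhgef18 (distance 0.0858) and Sema4b (0.138), and for Ccnd3 Slc25a4 (0.116) and Ass1 (0.233). For Cdkn1c they were Armcx2 (7.64 CPM in Dgcr8-/-, 19.7 CPM in Dicer-/- and 64.04 CPM in WT cells; distance 0.244) and Serpine2 (0.251), and for Cdkn2a Igfbpl1 (0.0311) is given. Genes close to Ccne1 (Sec61a1, Dhps), Ccne2 (Slc35a4, Ctdspl2), Cdkn1a (Trim24, Maz) and Cdkn1b (Crebbp, Gramd1b) lay within a distance of 0.0176.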

How the data were processed

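The authors deposited raw counts: reads per RefSeq entry for mRNA and reads per mature miRNA for small RNA. The submitters' processing notes name Bowtie and mm9; the counting tool and its strand setting are not stated there. Empty cells were read as 0. Counts from 2 to 9 were even in 74.8% (Dgcr8-/-), 69.7% (Dicer-/-) and 69.6% (WT) of cases, so a fragment may have been counted by each of its mates and intervals may be too narrow; they cover counting error only, since PCR reads are not independent molecules.

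CPM was computed over the total of the table; 1 CPM is 11.1, 12.3 and 9.93 counts in the Dgcr8-/-, Dicer-/- and WT libraries. Log2 ratios used CPM + 1, with a floor of 1 CPM in at least 1 of the 2 libraries, and calls were made at 2-fold. Intervals of ratios are exact conditional binomial, those of ratios of 2 count ratios conditional on the margins (scipy 1.17.1). Fold calls and intervals were run on simulated independent Poisson counts with planted changes, which checks the code only. The simulation held no double counting of fragments, no PCR copies and no spread between lines. No transcript lengths were given, so the planned shares of cyclin and inhibitor transcripts were replaced, after the data were seen, by count ratios within a library. Gene lists are by symbol; Cdkn2c and Fas were not analysed here. Neighbours come from the order in RefSeq GRCm38.p6 (13641 of 13815 rows matched by accession, 131 by symbol, 31 by synonym); gene coordinates are not given because the builds differ. RefSeq sequences matched 546 of 707 miRNAs. Named genes are the 9 members, the targeted genes, list members at 2-fold (up to 4 a list, by size) with Cdk2, Cdk4 and Cdk6, neighbours, the 2 nearest patterns (1 of those for Cdkn2a is not reported here) and the most read miRNAs; Trp53, Mdm2, Ccng1, Ccna2, Cdkn2d and Kcnq1ot1 were added after their values were seen. Members and lists were chosen with earlier results of these data known.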

Additional observations from a re-analysis of the deposited data

How the results depend on the processing

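Each of the 9 genes kept its direction and call against WT with a pseudocount of 0.1 or 5 CPM, no floor or a floor of 5 CPM, and TMM (edgeR 4.0.16 in R 4.3.3) or median-ratio scaling, except Ccne2 in Dgcr8-/- cells under median-ratio scaling (4 genes higher in place of 5). These scalings moved the median log2 ratio of all genes by -0.11 and -0.13 in Dgcr8-/- and by -0.10 and -0.11 in Dicer-/- cells. Median-ratio scaling gave 1558 higher and 1349 lower genes in Dgcr8-/- cells, against 1891 and 1060, so that 53.6% of calls were higher in place of 64.1%. Of the calls in the other gene lists, 2 of 16 in Dgcr8-/- cells (Ccnj and Skp2) and 3 of 20 in Dicer-/- cells (Cdk6, Cdc25b and E2f5) were lost under each scaling. In Dicer-/- cells each scaling gave 2 lower genes in place of 1 among pocket proteins and E2F, and 1 in place of 0 among ubiquitin ligase parts. At 4-fold, 3 of the 9 genes (Ccnd1, Ccnd2 and Cdkn2a) were higher and 1 lower in either knockout against WT. The lower gene was Cdkn1c in Dgcr8-/- and Ccnd3 in Dicer-/- cells, and between the knockouts 0 were lower. At 1.5-fold, Cdkn1a joined the higher genes in Dicer-/- cells, and 1 was higher and 2 lower between the knockouts. With a pseudocount of 5 CPM, 0 were lower between the knockouts.

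Over all genes, given as higher and lower, Dgcr8-/- against WT had 1087 and 411 with a pseudocount of 5 CPM, 3581 and 2345 at 1.5-fold, 342 and 159 at 4-fold, and 696 lower with a floor of 5 CPM. Dicer-/- against WT had 1232 and 591, 3759 and 2642, and 539 and 233 under those pseudocount and fold settings. Dgcr8-/- against Dicer-/- had 182 and 222, 1642 and 1618, and 63 and 114, with 849 and 1004 at a pseudocount of 0.1 CPM and 415 lower with a floor of 5 CPM. Grouping miRNAs by bases 2 to 7 gave 25.9% for the miR-294-3p seed, without miR-292-3p. Without the less read arm of each hairpin the shares were 27.6% for it, 1.65% for miR-17, 0.369% for miR-16, 0.0352% for let-7 (0.0328% with all arms), 1.85% for miR-25 and 0.304% for miR-26. These changes follow from the settings themselves, which add or remove genes or reads. No paired analysis was possible because each group has 1 library. Shares of cyclin and inhibitor transcripts per length were not computed, as no transcript length was given. At 22 counts for Cdkn2a and 28 for Ccnd2, the WT library limits the precision of their ratios.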

Other observations

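Of the listed genes next to the 9 members on the chromosome, 9630033F20Rik beside Ccnd2 was higher as well, at 96.01 CPM in Dgcr8-/-, 85.7 CPM in Dicer-/- and 38.8 CPM in WT cells, a ratio of 2.48 (2.20 to 2.79) and 2.21 (1.97 to 2.49). Parp11, on the other side of Ccnd2, was at 8.90, 9.67 and 11.4 CPM and was not called. Beside Ccnd1, Oraov1 was at 8.36, 7.39 and 7.85 CPM, and Tpcn2, an endolysosomal ion channel gene, was at 10.9, 6.66 and 3.52 CPM and was called higher in Dgcr8-/- cells. The genes beside Ccnd3, Taf8 and Bysl, were lower than WT in both knockouts but not called. Their log2 ratios were -0.65 and -0.61 in Dgcr8-/- and -0.77 and -0.98 in Dicer-/- cells. Under TMM and median-ratio scaling, Bysl in Dicer-/- cells passed 2-fold, at 2.13- and 2.14-fold lower in CPM. Beside Ccne1, 1600014C10Rik was called higher in both, at 10.9, 11.5 and 3.93 CPM. Neighbours of Ccne2, Cdkn1a and Cdkn1b were not called or lay under the floor.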
